A study of Homo sapiens with 4 samples.

Results

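Transcript levels of 35 genes of homologous recombination and of Fanconi anemia repair were compared in human fibroblasts before and after induction of FOXA2. The genes were taken by symbol from the deposited table of 63651 rows. Each symbol matched 1 row, and all 35 passed the filter of 1 FPKM or more in at least 1 group, as 14319 rows did in all. FPKM divides a fragment count by transcript length and by library size, so levels can be compared between genes.

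The cells were BJ-5ta, human foreskin fibroblasts made immortal by hTERT, the telomerase gene, as a clonal line in which doxycycline switches on FOXA2, a forkhead factor of endoderm and liver. Both groups grew in MEM-Alpha with serum, bFGF, hygromycin B and puromycin. The labels give 2 uninduced samples without doxycycline and 2 induced samples with 0.5 µg/ml doxycycline, and the table holds 1 value per group with a deposited confidence interval. The difference therefore has no replicate check, and no SD or p-value is given. The induction time is not stated in the labels. Mimosine, which halts cells in G1, is named in the labels without saying which cultures received it. FOXA2 was at 4.82 FPKM uninduced (interval 0.526 to 9.12) and rose to 104 FPKM when induced (50.2 to 158), and the value does not separate transgene from endogenous transcript. The samples used here include no doxycycline control that lacks the transgene, so drug exposure and FOXA2 cannot be told apart. All 12 fibroblast markers examined were above the filter in both groups. The most abundant were VIM (2098 and 905 FPKM), FN1 (863 and 2111 FPKM) and COL1A2 (756 and 519 FPKM). Their levels were not all steady. Of the 12, 3 were at least 2-fold lower and 3 at least 2-fold higher, against 6.03% and 9.2% of all genes that passed the filter. Of 5 endothelial markers, 0 passed the filter, and of 6 keratinocyte, 5 leukocyte and 5 melanocyte markers 1, 2 and 2 did. KRT10, at 16.1 FPKM uninduced, was the highest of these.

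Homologous recombination repairs double-strand breaks and broken forks by copying the sister chromatid, and is used mainly in S and G2 phase. Broken ends are resected to single strands, BRCA1, PALB2 and BRCA2 prepare these for strand exchange, and joined molecules are taken apart by helicase and nuclease complexes. The Fanconi pathway handles DNA interstrand crosslinks: a core ubiquitin ligase complex marks the FANCD2-FANCI pair, which directs nucleases and recombination to the lesion. The kinase ATR signals single-stranded DNA to the cell cycle through CHEK1.

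Most of these genes had lower values after induction, although no single one was set apart by its interval. Of the 35 genes 29 were below 0 on the log2 scale and 6 above 0, against 46.3% of all kept genes below 0. Each difference is log2(FPKM + 1) induced less that uninduced, and the added 1 shrinks the differences of low genes. At least 2-fold lower on that scale were 12 of 35, where 6.03% of all kept genes were, and 0 of 35 were at least 2-fold higher, against 9.2%. By the stricter criterion that the 2 deposited intervals do not overlap, 0 of 35 fell and 0 rose, against 0.454% and 0.726% of kept genes. With a looser criterion, an interval of the difference that excludes 0, the count was again 0 in each direction, against 1.11% and 1.26%. The overlap does not show that the genes stayed the same, since the upper bounds lay a median of 96.4% above the uninduced FPKM and 117% above the induced FPKM of these genes.

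The median difference of the 35 genes was -0.62, beside 0.05 over all kept genes. Among the 8727 kept genes whose mean level lay between the lowest and the highest of the group (2.37 and 38.5 FPKM), the median was 0.10 and 5.65% were at least 2-fold lower. The summed level of the 35 genes was 634 FPKM uninduced and 413 FPKM induced. The sum over all kept genes was also lower, at 552125 FPKM uninduced and 480827 FPKM induced. The scaling of the columns bears on these counts: with both columns brought to the same FPKM sum, 5 of 35 were at least 2-fold lower and 26 were below 0, and after quantile normalization 15 and 31. Of all kept genes 4.36% and 7.12% were at least 2-fold lower in these 2 settings. Measured from that overall median, the group lay at -0.68 as deposited, -0.67 with equal sums and -0.71 after quantile normalization. CHEK1, FANCB, FANCD2, RAD54L and UBE2T were at least 2-fold lower as deposited, with equal sums and after quantile normalization. They also were with a pseudocount of 0.1 and with no filter, but these 2 settings could remove no gene. All 35 passed the filter, and a smaller pseudocount can only enlarge a difference. Of the 12, the other 7 (BRCA1, EME1, EXO1, FANCA, RAD54B, XRCC2 and XRCC3) lay between -0.97 and -0.85 with equal sums.

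**Figure D1:**
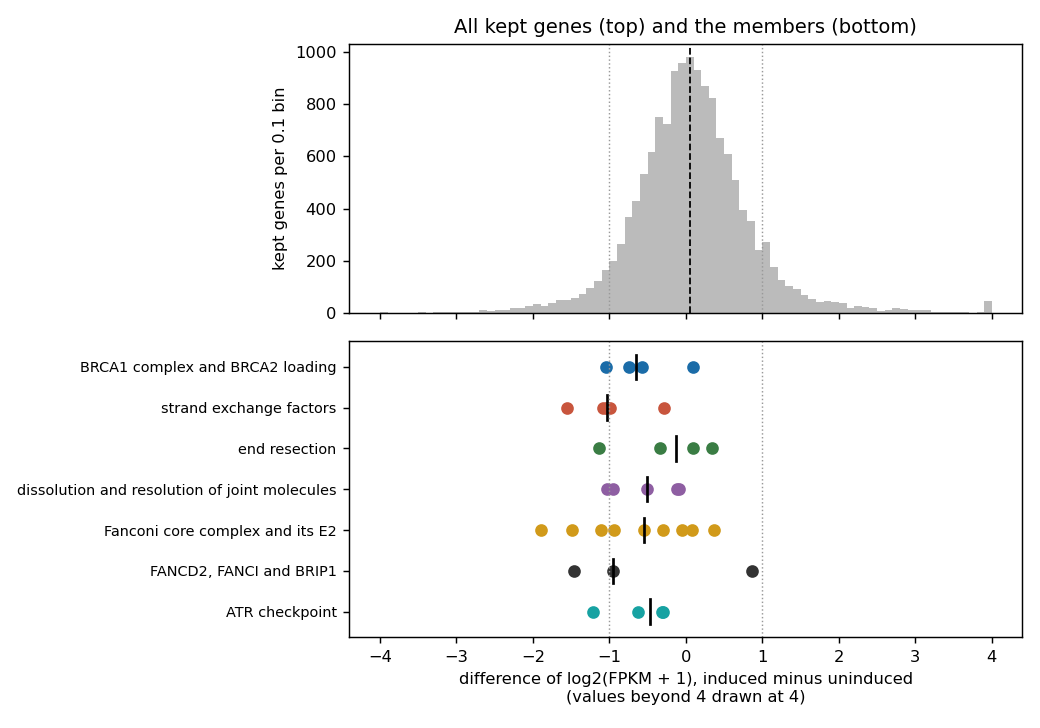
Difference of log2(FPKM + 1), induced minus uninduced. Top, histogram of the 14319 kept genes with their median (dashed line, 0.05); bottom, 1 point per gene of the 35 in 7 role groups, with a black bar at each group's median; dotted lines mark 2-fold. The 35 points lie between -1.90 (FANCB) and 0.87 (BRIP1), 12 of them left of the lower dotted line.

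Genes of replication and of mitosis moved in the same direction by more. Of all kept genes 6.03% were at least 2-fold lower and 0.454% fell by the interval criterion. Of 12 replication genes 9 were at least 2-fold lower with a median of -1.55, and their summed level was 950 FPKM uninduced and 386 FPKM induced. Of 8 mitosis genes all were at least 2-fold lower, 4 fell by the interval criterion (CCNB1, PLK1, BUB1 and CDC20), and the median was -2.39. Their summed level was 755 FPKM uninduced and 145 FPKM induced. In bulk RNA, fewer cycling cells and less of these transcripts per cell cannot be told apart, and the part of this shift in the repair genes was not tested.

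**Figure D2:**
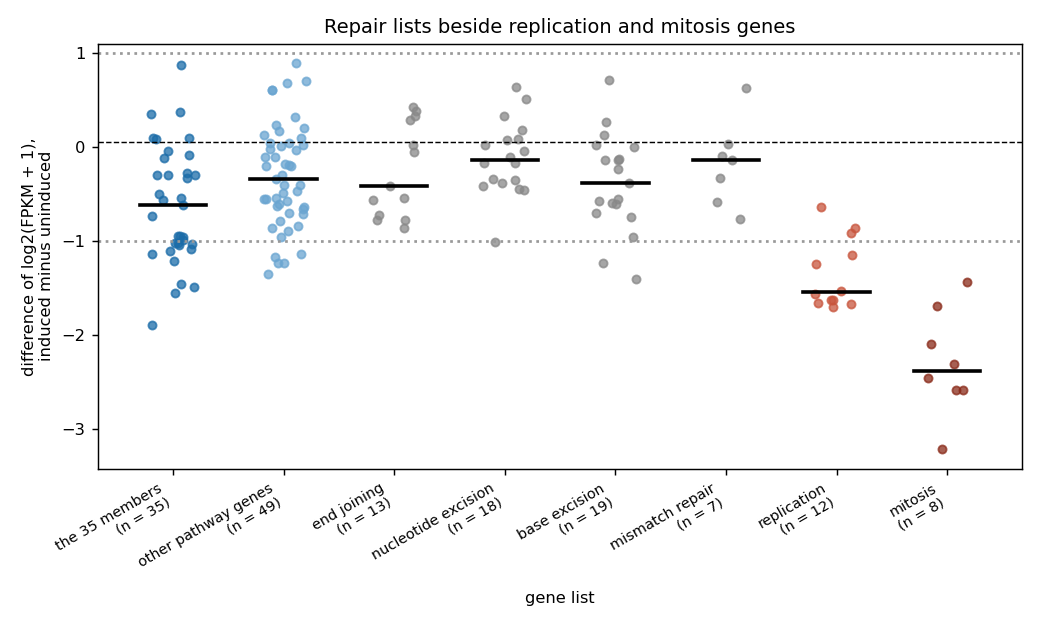
Difference of log2(FPKM + 1), induced minus uninduced, for kept genes of 8 lists, 1 point per gene, with a black bar at each list's median. The dashed line is the median of all kept genes (0.05) and the dotted lines mark 2-fold. The median of the 35 repair genes (-0.62) lies between those of the other repair lists and those of the replication (-1.55) and mitosis (-2.39) lists.

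Promoters are shown because most genes of this pathway had lower values together and because many S-phase genes are known to be driven by E2F factors. Of the 35 genes 31 matched a promoter in the RefSeq table of GRCh38.p14, covering 250 bases before to 50 after the start. FANCI, NBN, RAD54B and RMI2 were not matched. Both strands were searched for the E2F words TTTCGCGC, TTTGGCGC, TTTCCCGC and TTTGCCGC, for the CHR words TTTGAA and TTCGAA of mitotic promoters, and for CCAAT. An E2F word was in 6 of 31 promoters (19.4%), against 3.31% of all 35116 promoters and 4.1% of the 22198 protein-coding ones. CHR words were in 3 of 31 (9.68%, against 16.4% of all) and CCAAT in 15 of 31 (48.4%, against 34.6%). No E2F word overlapped a CHR or CCAAT word. The median GC content was 64.3% in the 31 promoters and 62.3% in protein-coding promoters. Of 11 matched genes at least 2-fold lower as deposited 4 held an E2F word, and of the other 20 genes 2 did. This split depends on the scaling. Of the 4, FANCD2 alone (-1.29) stayed at least 2-fold lower with equal sums, and EXO1 (-0.97), FANCA (-0.92) and XRCC2 (-0.96) did not. CHEK1, FANCB, RAD54L and UBE2T, which also stayed, held no E2F word. A match describes these letters and is not evidence of binding, and no match says only that the letters are not in this window.

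The 7 E2F words are given in 30-base windows on the strand of the gene, with the word, or its reverse complement, in capitals. The windows are chr3:10026424-10026453 (FANCD2, plus strand), chr1:241848197-241848226 (EXO1, plus strand), chr16:89816801-89816830 (FANCA, minus strand), chr7:152676102-152676131 (XRCC2, minus strand) and chr3:133661930-133661959 (TOPBP1, minus strand) in GRCh38.p14. FANCC held 2 words on the minus strand, in chr9:95317863-95317892 and chr9:95317737-95317766.
FANCD2: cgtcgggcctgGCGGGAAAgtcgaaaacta
EXO1: aaaggtcagccTTTCGCGCgctgtgtaggc
FANCA: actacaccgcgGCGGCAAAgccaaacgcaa
XRCC2: tggcgttggtgGCGGGAAAgttgagtctct
TOPBP1: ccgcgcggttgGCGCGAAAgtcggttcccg
FANCC (upstream word): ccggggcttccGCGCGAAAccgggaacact
FANCC (downstream word): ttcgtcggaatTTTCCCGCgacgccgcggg
In 5 of the 7 the centre of the word lay within 100 bases of the start. FANCD2, EXO1, FANCA and XRCC2 were at least 2-fold lower as deposited, TOPBP1 was lower by less, and FANCC, with a pair of words, was near 0.

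Whole windows of 300 bases are given for the 3 genes with the largest drop. They are chrX:14873020-14873319 (FANCB, minus strand), chr1:46247438-46247737 (RAD54L, plus strand) and chr1:202341887-202342186 (UBE2T, minus strand), in GRCh38.p14 and in capitals where a CHR word or CCAAT was found on either strand.
FANCB: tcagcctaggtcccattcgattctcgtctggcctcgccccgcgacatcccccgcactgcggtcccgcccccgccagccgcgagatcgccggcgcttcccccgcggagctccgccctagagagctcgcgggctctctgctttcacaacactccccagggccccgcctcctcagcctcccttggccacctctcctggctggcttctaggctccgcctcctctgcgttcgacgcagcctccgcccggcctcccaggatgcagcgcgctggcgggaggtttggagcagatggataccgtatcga
RAD54L: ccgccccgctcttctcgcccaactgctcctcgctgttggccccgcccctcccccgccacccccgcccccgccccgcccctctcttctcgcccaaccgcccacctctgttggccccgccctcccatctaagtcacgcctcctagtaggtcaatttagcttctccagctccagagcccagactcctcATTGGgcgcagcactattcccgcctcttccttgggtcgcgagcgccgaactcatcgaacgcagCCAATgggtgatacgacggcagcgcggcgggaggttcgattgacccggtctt
UBE2T: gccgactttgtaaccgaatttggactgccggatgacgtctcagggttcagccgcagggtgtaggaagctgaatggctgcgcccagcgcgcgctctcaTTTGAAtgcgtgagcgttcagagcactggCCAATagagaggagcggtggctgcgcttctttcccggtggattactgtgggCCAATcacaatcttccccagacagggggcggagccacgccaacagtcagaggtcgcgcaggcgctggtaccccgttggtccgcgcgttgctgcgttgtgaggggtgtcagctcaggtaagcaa
The FANCB window held none of the words searched. RAD54L held 2 CCAAT words, and UBE2T held a CHR word and 2 CCAAT words upstream of its start.

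The genes of the BRCA1 complex and of BRCA2 loading were split. BRCA1, the ubiquitin ligase that promotes resection and recruits PALB2 (chromosome 17, 41196312 to 41277500, hg19), was at 17.2 FPKM uninduced (interval 0.275 to 34.2) and 7.85 FPKM induced (0 to 17.6), a difference of -1.04. BARD1, its obligate RING partner, was at 11.8 FPKM (0.685 to 23.0) and 7.63 FPKM (0 to 16.6), a difference of -0.57. BRCA2, which prepares resected strands for strand exchange, was the least abundant of the 4, at 3.21 FPKM (0 to 9.41) and 1.52 FPKM (0 to 4.16), a difference of -0.74. PALB2, the bridge between BRCA1 and BRCA2, did not follow them. It was at 7.81 FPKM (1.53 to 14.1) and 8.41 FPKM (0.450 to 16.4), a difference of 0.10 that turned to -0.08 after quantile normalization.

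All 6 strand exchange factors had lower values, and 4 were at least 2-fold lower, against 46.3% and 6.03% of all kept genes. Of these 4, RAD54L alone stayed at least 2-fold lower with equal sums. RAD54L, a translocase that drives strand exchange (chromosome 1, 46713360 to 46769280), was at 12.4 FPKM (0 to 39.1) and 3.54 FPKM (0 to 12.5), a difference of -1.56. Its relative RAD54B was at 11.1 FPKM (0.411 to 21.9) and 4.94 FPKM (0 to 10.2), a difference of -1.03. Both translocases were at least 2-fold lower, with overlapping intervals. XRCC2, a subunit of the BCDX2 complex and the least abundant of the 6 genes, was at 4.32 FPKM (0.893 to 7.75) and 1.51 FPKM (0.0504 to 2.97), a difference of -1.08. XRCC3, which pairs with RAD51C, was at 15.6 FPKM (0 to 49.8) and 7.16 FPKM (0 to 33.0), a difference of -1.03. RAD51AP1, which stimulates strand exchange and was the most abundant of the 6 uninduced, came just short of 2-fold. It was at 31.5 FPKM (6.99 to 56.1) and 15.4 FPKM (1.03 to 29.7), a difference of -0.99. RAD51C differed least, at 19.4 FPKM (0.756 to 38.0) and 15.7 FPKM (0.412 to 31.1), a difference of -0.28.

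Of the 4 end resection genes, EXO1 alone was at least 2-fold lower, against 6.03% of all kept genes. This exonuclease, which extends resected ends (chromosome 1, 242011269 to 242058450), was at 15.1 FPKM (0.795 to 29.4) and 6.30 FPKM (0 to 13.7), a difference of -1.14. The genes of the MRN complex, which senses breaks and starts resection, differed by less. MRE11A, its nuclease, was at 16.3 FPKM (2.16 to 30.3) and 12.7 FPKM (2.15 to 23.2). RAD50, its ATPase, was at 19.02 FPKM (6.27 to 31.8) and 24.4 FPKM (8.73 to 40.1). NBN, its regulatory subunit, was at 37.3 FPKM (1.78 to 72.8) and 39.7 FPKM (0 to 79.6), the highest induced value of all 35 genes. The differences of the MRN genes were -0.34 for MRE11A, 0.34 for RAD50 and 0.09 for NBN.

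Genes that take joint molecules apart all had lower values, by unequal amounts, against 46.3% of all kept genes below 0. BLM, the helicase of the dissolvasome, was at 5.16 FPKM (0.697 to 9.63) and 2.17 FPKM (0 to 4.496), a difference of -0.96. Its OB-fold partner RMI1 was at 14.9 FPKM (3.29 to 26.5) and 10.2 FPKM (1.21 to 19.1), a difference of -0.51. RMI2, the other OB-fold partner and the most abundant of the 5 genes, was at 28.5 FPKM (3.37 to 53.6) and 26.6 FPKM (5.11 to 48.1), a difference of -0.09. In the MUS81-EME1 nuclease the partner subunit had the lower difference, and the loci of both genes overlap those of other kept genes. EME1 was at 10.4 FPKM (0 to 44.8) and 4.61 FPKM (0 to 20.5), a difference of -1.02, and the catalytic subunit MUS81 was at 27.5 FPKM (0 to 116) and 25.3 FPKM (0 to 96.1), a difference of -0.12. With the columns brought to the same sum, RMI2 and MUS81 were above 0, at 0.10 and 0.07.

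The Fanconi core genes ranged from FANCB, the lowest difference of the 35, to FANCF above 0. FANCB, a scaffold of the catalytic module (chromosome X, 14861529 to 14891191), was at 7.30 FPKM (0 to 15.6) and 1.23 FPKM (0 to 2.76), a difference of -1.90. Of all kept genes, 1.29% had a difference as low. UBE2T, the E2 enzyme that passes ubiquitin to FANCD2 (chromosome 1, 202300785 to 202311108), was the most abundant of the 35 uninduced. It was at 57.1 FPKM (18.6 to 95.7) and 19.7 FPKM (2.34 to 37.0), a difference of -1.49. FANCA was at 28.1 FPKM (0 to 63.3) and 12.5 FPKM (0 to 32.6), a difference of -1.11, and its partner FANCG at 23.7 FPKM (0.484 to 46.9) and 11.8 FPKM (0 to 26.3), a difference of -0.95.

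The other 5 core genes differed by less. FANCE, which bridges the core to FANCD2, was at 8.42 FPKM (1.69 to 15.2) and 5.46 FPKM (0.677 to 10.2), a difference of -0.54. FANCM, the translocase that anchors the core to DNA, was at 4.54 FPKM (0.839 to 8.25) and 3.51 FPKM (0 to 8.86), a difference of -0.30. FANCL, the RING ligase, was at 26.4 FPKM (0.947 to 51.8) and 25.5 FPKM (1.29 to 49.7). The ligase transcript thus differed by less than that of its E2, UBE2T, in the same columns. FANCC was at 9.16 FPKM (0 to 21.5) and 9.71 FPKM (0 to 22.0), and FANCF, an adaptor and the least abundant core gene uninduced, at 3.03 FPKM (0 to 6.10) and 4.19 FPKM (0.408 to 7.98). The differences were -0.05 for FANCL, 0.08 for FANCC and 0.36 for FANCF. FANCL turned to 0.14 with equal sums, and FANCC to -0.07 after quantile normalization.

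Of the genes acting below the core, FANCD2 and FANCI were lower and BRIP1 was higher. FANCD2 (chromosome 3, 10068098 to 10149915), a subunit of the ubiquitinated clamp, was at 16.6 FPKM (0 to 39.2) and 5.41 FPKM (0 to 11.9), a difference of -1.46. FANCI, its partner in the clamp, was at 45.0 FPKM (0 to 105) and 22.8 FPKM (0 to 61.7), a difference of -0.95. BRIP1, or FANCJ, a helicase that binds BRCA1 (chromosome 17, 59758627 to 59940882), had the highest difference of the 35. It was at 7.39 FPKM (2.15 to 12.6) and 14.3 FPKM (4.47 to 24.2), a difference of 0.87, and no other kept gene overlapped its locus. Of all kept genes 88.5% had a difference at or below that of BRIP1. With the columns brought to the same sum the BRIP1 difference was 1.06, beside an overall median of 0.23. After quantile normalization it was 0.74.

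All 4 ATR checkpoint genes had lower values, and the effector kinase CHEK1 alone was at least 2-fold lower. Of all kept genes 46.3% were below 0 and 6.03% at least 2-fold lower. CHEK1 (chromosome 11, 125439112 to 125551018) was at 38.7 FPKM (0 to 113) and 16.1 FPKM (0 to 55.6), a difference of -1.22. TOPBP1, an activator of ATR, was at 29.2 FPKM (0 to 58.6) and 18.6 FPKM (0 to 39.7), a difference of -0.62. The sensor kinase and its partner had nearly equal levels in each column. ATR was at 10.6 FPKM (0 to 22.9) and 8.36 FPKM (0 to 18.2), and ATRIP at 10.7 FPKM (0 to 22.2) and 8.51 FPKM (0 to 22.2), differences of -0.31 and -0.30.

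**Figure D3:**
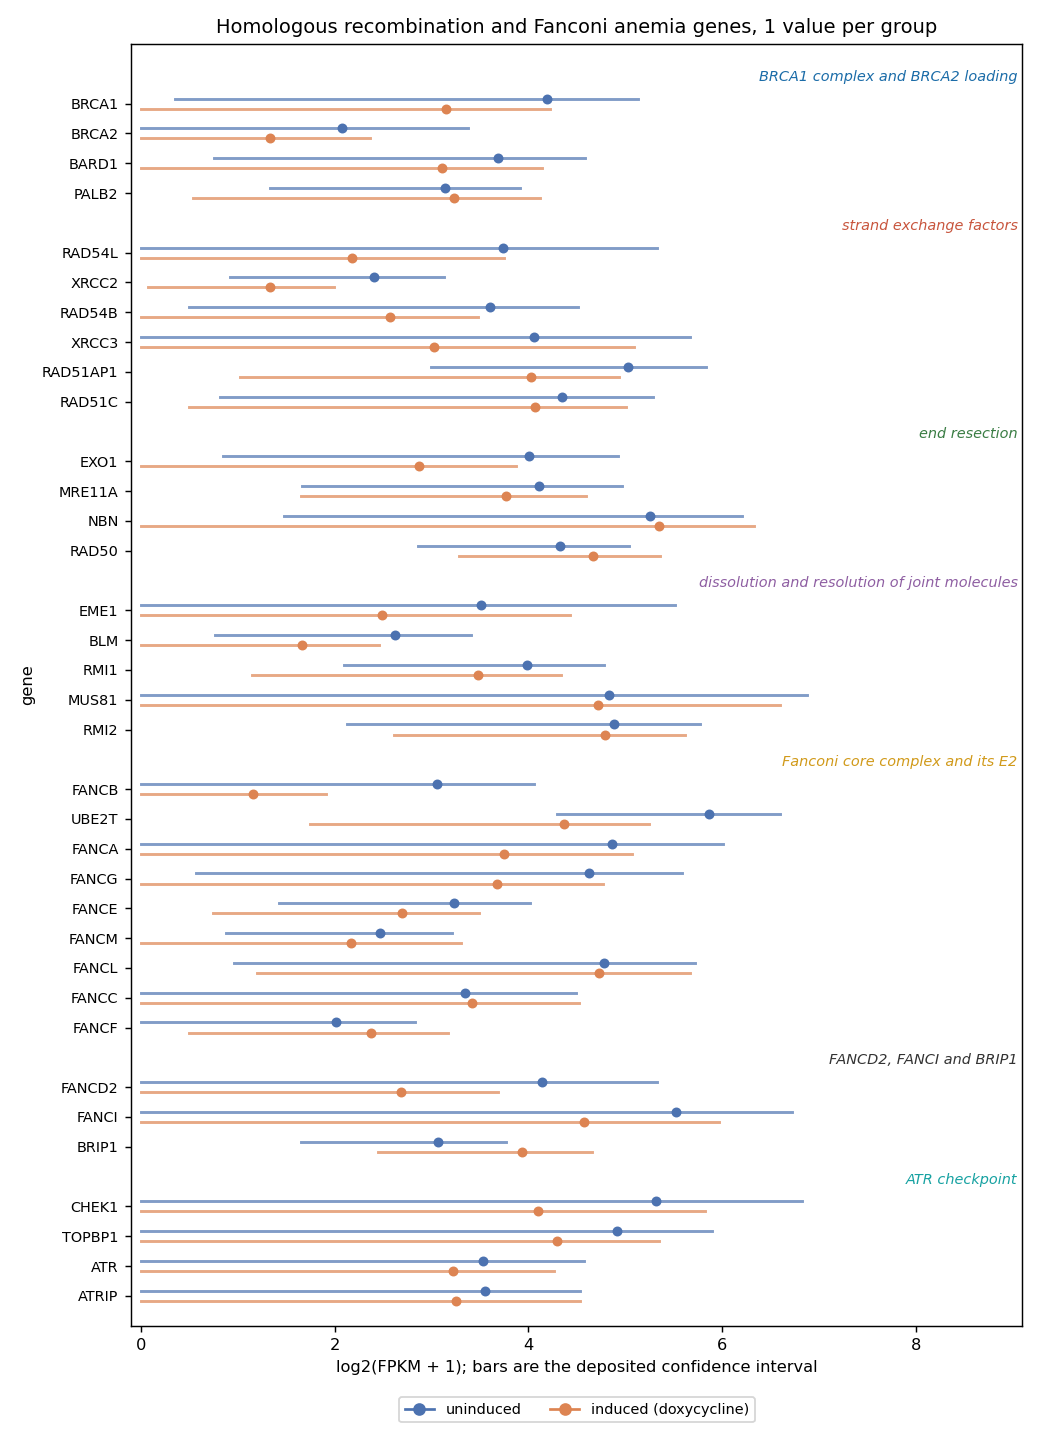
Levels of the 35 genes as log2(FPKM + 1), with the deposited confidence interval as a bar, uninduced (blue) and induced (orange), by role group. The bars of both groups overlap for every gene, with UBE2T (57.1 and 19.7 FPKM) shifted left and BRIP1 (7.39 and 14.3 FPKM) shifted right.

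Ratios of partner genes within 1 column are not changed by a constant factor applied to a column. They have no interval of their own and are given as descriptions for pairs chosen after the values were seen. Some of these genes share a locus with another kept gene, as described below. ATRIP to ATR was 1.02 in both columns, and BRCA1 to BARD1 was 1.45 uninduced and 1.03 induced. UBE2T to FANCL, the E2 to its ligase, was 2.17 uninduced and 0.772 induced. PALB2 to BRCA2 was 2.43 and 5.53, MUS81 to EME1 was 2.64 and 5.49, and RMI2 to BLM was 5.51 and 12.2. FANCI to FANCD2 was 2.71 and 4.22, so the FANCD2 transcript was the scarcer of that pair in both columns and more so after induction.

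**Figure D4:**
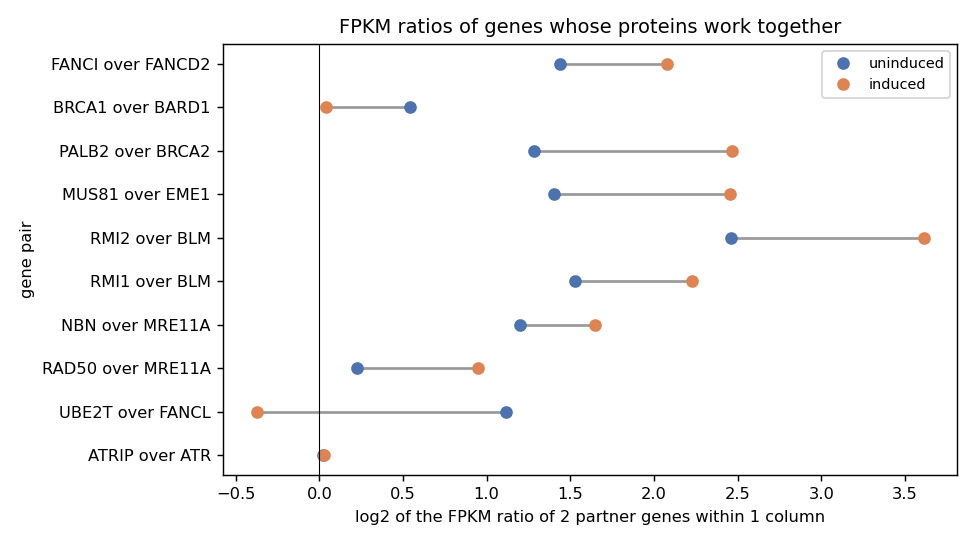
Log2 of the FPKM ratio of 2 partner genes within a column, uninduced (blue) and induced (orange), 1 row per pair. The points of ATRIP over ATR coincide (ratio 1.02), and those of UBE2T over FANCL lie on opposite sides of 0 (2.17 and 0.772).

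Levels of the 35 genes were moderate in both columns. Uninduced they ran from 3.03 FPKM (FANCF) to 57.1 FPKM (UBE2T) with a median of 15.1, and 25 of 35 were at 10 FPKM or more. Induced they ran from 1.23 FPKM (FANCB) to 39.7 FPKM (NBN) with a median of 8.51, and 16 of 35 were at 10 FPKM or more. Genes of all levels were among the 12 at least 2-fold lower, from XRCC2 (4.32 FPKM uninduced) to UBE2T. Spearman's rho between mean level and difference was 0.08 across the 35 genes, which share both columns.

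**Figure D5:**
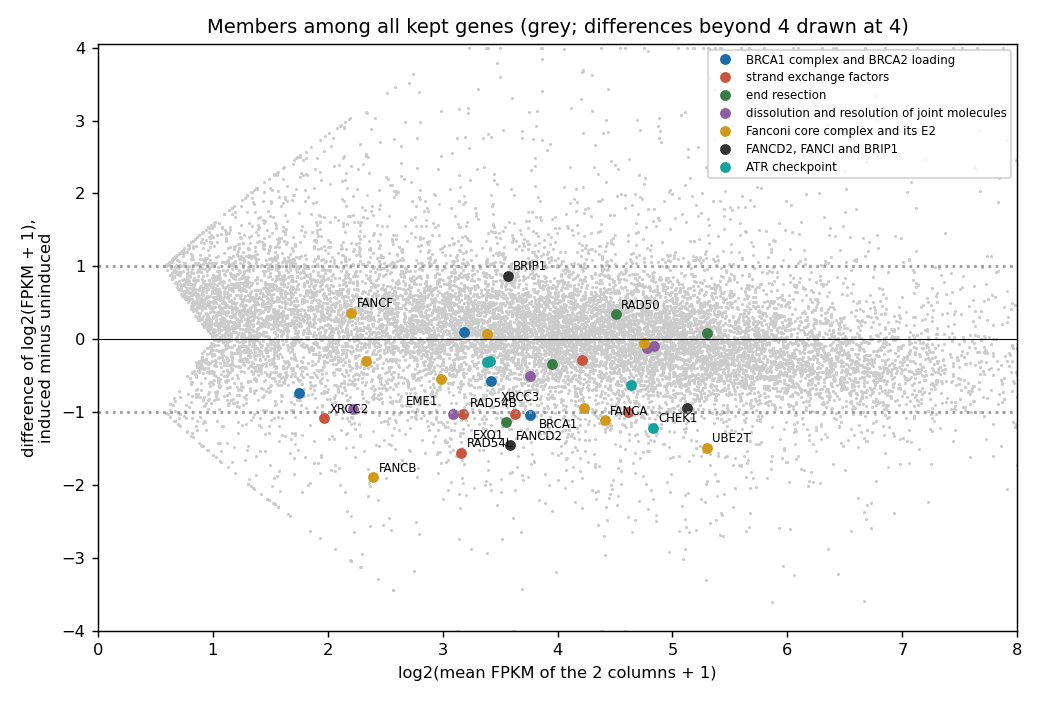
Difference of log2(FPKM + 1), induced minus uninduced, against log2 of the mean FPKM + 1, for all 14319 kept genes (grey) and the 35 genes by role group (colours). The 12 genes at or below the lower dotted line (2-fold) spread from low levels (XRCC2, FANCB) to the highest mean level of the lower genes (UBE2T).

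The deposited locus of 16 of the 35 genes overlaps that of another kept gene, and libraries without strand cannot tell overlapping transcripts apart. A deposited locus can be wider than its gene, so overlapping loci need not mean overlapping transcripts. Of these 16 genes 7 were at least 2-fold lower, and of the 19 with a locus of their own 5 were (FANCB, UBE2T, EXO1, XRCC2 and BRCA1). The median difference was -0.64 in the first set and -0.62 in the second. ATRIP overlaps the exonuclease gene TREX1, which was at 15.1 FPKM uninduced and 56.5 FPKM induced, and RMI2 overlaps SOCS1, at 10.5 and 5.68 FPKM. MUS81 overlaps CFL1, at 779 and 462 FPKM. CHEK1 overlaps STT3A, at 165 and 134 FPKM, and EI24, at 76.5 and 62.1 FPKM, and RAD54L overlaps LRRC41, at 53.4 and 47.5 FPKM. EME1 overlaps LRRC59, at 131 and 80.4 FPKM, and RP1-117B12.4, at 32.8 and 18.8 FPKM. FANCA overlaps ZNF276 (10.6 and 10.2 FPKM), VPS9D1 (9.99 and 10.2 FPKM) and VPS9D1-AS1 (2.94 and 0.858 FPKM). FANCD2 overlaps FANCD2OS, at 1.23 and 0.635 FPKM, and RAD54B overlaps FSBP, at 1.01 and 3.05 FPKM. XRCC3 overlaps 9 kept genes, among them KLC1 (90.1 and 88.1 FPKM), and its upper bounds lay 219% and 361% above its values. The part of these neighbours in the values was not tested. For the 5 genes with 1 or 2 annotated starts (FANCE, FANCF, RMI1, UBE2T and XRCC2) upper bounds lay a median of 79.3% above the uninduced FPKM. For the 29 with 5 or more starts the median was 98.0%. The ranges overlapped, from 67.4% to 101% and from 67.0% to 330%.

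Further genes of the pathway that are not among the 35 had smaller differences as a list. Of 50 listed genes 49 were kept, 34 were below 0, 5 were at least 2-fold lower, 0 were at least 2-fold higher and 0 rose or fell by the interval criterion. The shares of all kept genes were 46.3% below 0, 6.03% at least 2-fold lower and 9.2% at least 2-fold higher. Their median was -0.34. The most abundant were SHFM1, a small BRCA2-binding protein (126 and 90.6 FPKM), ERCC1, a nuclease subunit (90.8 and 50.03 FPKM), and RPA1, which coats single strands (71.7 and 47.7 FPKM). The genes at least 2-fold lower, named after their values were seen, were PARPBP (-1.36), STRA13 (-1.24), CLSPN, an adaptor of CHEK1 (-1.24), RFWD3 (-1.17) and GEN1, a Holliday junction resolvase (-1.14). The highest difference of the list was that of ATM, the kinase that signals double-strand breaks, at 11.1 and 21.3 FPKM (0.89), with overlapping intervals.

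Genes of other repair pathways were also mostly below 0. Of the end joining genes 8 of 13 were, and of the nucleotide excision genes 11 of 18. Of the base excision genes 15 of 19 were, and of the mismatch repair genes 5 of 7. The share of all kept genes below 0 was 46.3%. At least 2-fold lower were 3 genes of these lists, against 6.03% of all kept genes. Of 13 end joining genes 0 were at least 2-fold lower (median -0.42), with XRCC6, or Ku70, at 221 and 121 FPKM. Of 18 nucleotide excision genes 1 was, ERCC6 (-1.01), with a median of -0.14. Of 19 base excision genes 2 were, NEIL3 (-1.41) and FEN1 (-1.24), a nuclease that also matures Okazaki fragments, with a median of -0.39. Of 7 mismatch repair genes 0 were, with a median of -0.14 and MSH6 at 59.7 and 34.5 FPKM. Summed levels, induced over uninduced, had a ratio of 0.65 for end joining and 0.84 for nucleotide excision. The ratio was 0.70 for base excision, 0.74 for mismatch repair and 0.65 for the 35 genes. Whether these lists differ from the 35 genes was not tested, since 1 value per group gives no error between cultures.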

How the data were processed

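RNA of 2 uninduced and 2 induced samples was sequenced from TruSeq libraries that do not keep strand, per the labels' protocols. Per the submitters' processing notes, TopHat and hg19 were used; the sources used here do not give the quantifier, its version or any filter. Per the file headers, the authors deposited FPKM, in 1 column per group, each with 2 confidence bounds. Whether a column combines both samples, and the level of the intervals, is not stated. Column names gave the groups, and another 3 value columns, which fit no sample used here, were not used. Total reads are unknown. Fitted tests need values per sample and could not be run.

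The filter required 1 FPKM or more in either column. Differences were taken as log2(FPKM + 1), induced minus uninduced, and called at 2-fold or where the intervals do not overlap. Among kept genes 3 had bounds on the wrong side of their value and were not called by interval. The interval of the difference adds the 2 distances to the upper bounds in squares. Locus starts count from 0 in the table (22132 locus lengths equal GENCODE's under that reading, 326 under the other) and are printed counted from 1. The hg19 coordinates printed are these loci, which can be wider than the gene. Alternatives were another pseudocount, equal FPKM sums, quantile normalization, no filter, a mean of 5 FPKM, and the removal of shared loci. The calls and the motif search were tested on simulated data. For the calls, success was required only with large differences and intervals far narrower than deposited. Calls were also counted with intervals as wide as deposited, but no success was required there and those counts are not given here. What the interval criterion can find at the deposited widths is thus not shown here. Scripts used Python 3.11.15 with pandas 2.3.3.

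The rule for named genes gave in full every gene of the 35 past a threshold and the most and least abundant of each role; the others of the 35 were added. The 35 genes and the lists were chosen with earlier results of these data known, and 1 listed gene is not reported here. PARPBP, STRA13, CLSPN, RFWD3, GEN1, ATM, ERCC6, NEIL3, FEN1, KRT10 and the overlapping genes were named after their values had been seen.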

Additional observations from a re-analysis of the deposited data

How the results depend on the processing

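With both columns scaled to the same FPKM sum, 5 of the 35 genes were at least 2-fold lower (12 as deposited) and their median was -0.43 (-0.62 as deposited). Of all kept genes 6.03% were at least 2-fold lower as deposited and 4.36% with equal sums. The overall median moved from 0.05 to 0.23 in this setting. After quantile normalization the median was -0.73. With the genes of shared loci left out, 5 of 19 were at least 2-fold lower, and of the 16 left out 7 were. Of the 35 genes 15 were at least 2-fold lower with a pseudocount of 0.1 and 15 after quantile normalization. The shares of all kept genes were 7.62% and 7.12%. A minimum mean of 5 FPKM left 29 of the 35, of which 10 were at least 2-fold lower, against 6.30% of all genes above that minimum. The count of genes that fell by interval was 0 under every alternative run, and FOXA2 rose under each. Another pseudocount and the removal of genes could not raise that count. Total reads are unknown, so what depth limits was not tested. The deposited lower bound was 0 for 15 of the 35 genes uninduced and 22 induced, against 7275 and 7187 of the 14319 kept genes. No paired analysis was possible because each group has a single value. The planned limma fit, the replicate block and leaving out samples in turn were not run, since all need values per sample.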
